A study of Mus musculus with 2 samples.

Results

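Integrins are the adhesion receptors by which blood cells hold on to the bone marrow, and 10 of their subunit genes were compared here between progenitors of red blood cells from mice without the adhesion molecule ESAM and from WT mice, after the bone marrow had been damaged by 5-FU. The 10 genes, out of 20660 named genes on the array, were the alpha subunits Itga4, Itga5, Itga6, Itga9, Itgav, Itgal and Itgam and the beta subunits Itgb1, Itgb2 and Itgb7. Each gene was followed by every probe whose transcript accession carried its symbol in RefSeq, which gave 16 probes, 1 spot each. In ESAM-KO cells the signal of Itga5 and Itgb2 was lower by more than 2-fold, that of Itgav was higher by at least 2.83-fold, 6 other subunits lay within 2-fold, and Itga9 was not well above background in either genotype. Over all genes with a ratio, 15.4% were past 2-fold.

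Every integrin is a pair of 1 alpha and 1 beta chain, and the alpha chain largely decides which ligand is bound. Itgb1 pairs with Itga4 to make VLA-4, the receptor for VCAM1 and fibronectin that anchors stem cells and erythroblasts to stroma and to the macrophage at the centre of the erythroblastic island, and with Itga5 to make VLA-5, the classical fibronectin receptor. Itgb2 pairs with Itgal to make LFA-1 and with Itgam to make Mac1, both of which are found on leukocytes and bind ICAM proteins. ESAM itself is an immunoglobulin-type adhesion molecule of endothelial cells, platelets and hematopoietic stem cells, and is no integrin.

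The cells were pre CFU-E, early erythroid progenitors, sorted from bone marrow as cells that were Lin- and Sca1-, FCgRII/III-/Lo and CD41Lo, and c-Kit+ with endoglin+ and CD150+. The WT mice and the ESAM-KO mice, a knockout line bred from heterozygous parents, were C57BL/6 animals per the labels and aged 8 to 12 weeks per the study's methods. Mice of both genotypes had received a single dose of 120 mg/kg of 5-FU, a drug that kills dividing cells, 8 days before the sort, and no untreated mice were on the arrays. The marrow of 3 mice was pooled for each genotype and the RNA was amplified and put on 1 Agilent array, so that no value has a replicate, an SD or a p-value, and the pools, sorts and amplifications cannot be told apart from the genotype. Integrin proteins also had a part in choosing the cells, which limits what their genes can show. CD41 in the gate is the protein of Itga2b, and the lineage antibodies of the gate included one to Mac1, the pair of Itgam and Itgb2, beside those to Gr1, CD3e, B220 and Ter119.

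In WT cells 57.3% of spots gave a signal well above background, and in ESAM-KO cells 61.1% did. The lowest signal that counted as such was 12.6 in WT and 13.2 in ESAM-KO. Ratios are given as log2 of ESAM-KO over WT after each array was set relative to its 75th percentile (201.4 and 251.1), so that 0 is no difference and 1 or -1 is 2-fold, the criterion of the study's methods. The error behind each ratio is the scanner software's own error for the spots, which leaves out the spread between mice, sorts and amplifications. A ratio could be given for 14136 genes, with 6.99% higher and 8.43% lower past 2-fold in ESAM-KO cells. Of the genes that define erythroid progenitors, Gata1 read 5959 in WT and 5889 in ESAM-KO, Klf1 1149 and 1147, and Epor 1175 and 1371, each well above background and within 2-fold. The probe of Esam read 27.4 in WT cells and 20.6 in ESAM-KO cells, a log2 ratio of -0.73 ± 0.31. Where this probe lies relative to the deleted stretch of the gene is not given in the sources used here, so the reading does not check the genotype.

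**Figure D1:**
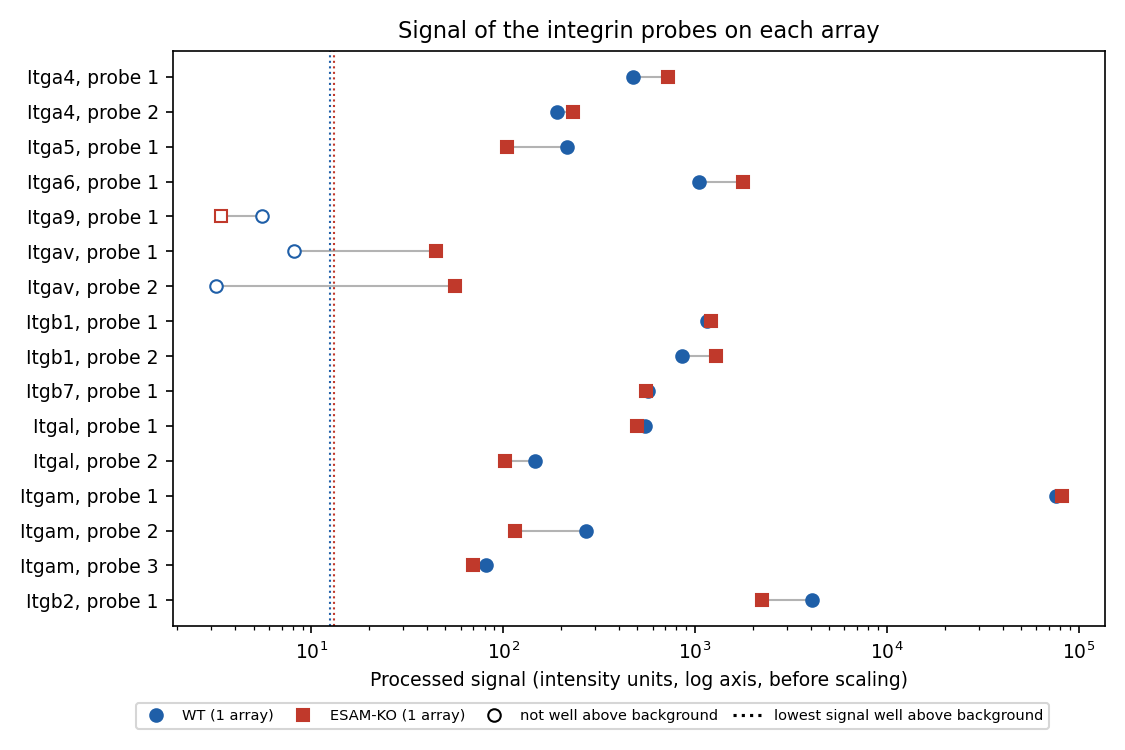
Signal of the 16 integrin probes on each array, on a log axis in intensity units before scaling, with WT as circles and ESAM-KO as squares. Open symbols, for Itga9 on both arrays and for both Itgav probes in WT, were not well above background. Dotted lines mark the lowest signal well above background on each array, 12.6 and 13.2.

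Itga4, the alpha chain of VLA-4 and, with Itgb7, of the gut homing receptor, was measured by 2 probes. The first read 474 in WT cells and 722 in ESAM-KO cells, and the second read 190.4 and 230.1. Both readings were higher on the ESAM-KO array before scaling. After scaling the log2 ratios were 0.29 ± 0.20 and -0.04 ± 0.21, so that the probes lay on either side of 0 and both within 2-fold.

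Itga5, the alpha chain of the fibronectin receptor VLA-5, had the lowest ratio among the brightest probes of the 10 genes. Its 1 probe (NM_010577) read 215 in WT cells and 104 in ESAM-KO cells, 2.57-fold lower after scaling, with a log2 ratio of -1.36 ± 0.21. The ESAM-KO reading was thus the lower of the pair before and after scaling. The ratio was past 2-fold in 11 of 12 other ways of processing the arrays and reached -0.99 in the other, normexp background correction. Filters and probe choices among the 12 left it at -1.36, since they cannot move a gene with 1 spot above background on both arrays. The other scalings and background correction gave -1.49 to -0.99. Among genes in the same quartile of signal, the second from the dimmest, 19.1% were past 2-fold in either direction.

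Itga6, a laminin receptor chain carried by stem and progenitor cells, read 1044 in WT cells and 1777 in ESAM-KO cells. Its log2 ratio was 0.45 ± 0.20, or 1.37-fold higher, and stayed above 0 and within 2-fold in the 12 alternatives, between 0.32 and 0.77. As for Itga5, filters and probe choices could not move this ratio. It was the highest ratio among the members measured on both arrays.

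Itgav, the alpha chain of the vitronectin receptors that bind the RGD sequence in matrix proteins, was well above background in ESAM-KO cells only. Its first probe (both are for NM_008402) read 8.13 in WT cells, not well above background, and 44.4 in ESAM-KO cells. The second read 3.18, again not well above background, and 56.0. Both probes thus differed in the same way, and the WT level can be given only as an upper limit. Set against the lowest signal well above background in WT, the first probe gave a level in ESAM-KO cells at least 2.83-fold higher (log2 ratio of at least 1.503) and the second one at least 3.57-fold higher (at least 1.84). The first probe's limit was 0.64 with normexp, which is within 2-fold. Itgav lies in the dimmest quartile of signal, in which 17.9% of genes measured on both arrays were past 2-fold. Such limits were often past 2-fold. Of the 14136 genes with a ratio, 1521 had a limit. Past 2-fold were 2179 of the 14136, and 1589 of the 12615 measured on both arrays. Itga9, which pairs with Itgb1 and binds tenascin and VCAM1, read 5.56 in WT cells and 3.39 in ESAM-KO cells on its 1 probe. Neither reading was well above background, and no ratio is given.

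Itgb1, the beta chain shared by VLA-4, VLA-5 and the Itga6, Itga9 and Itgav pairs, was measured by 2 probes that disagreed in direction. The first read 1159 in WT cells and 1211 in ESAM-KO cells, and the second 856 and 1291. Their log2 ratios were -0.26 ± 0.20 and 0.27 ± 0.20, and the first was 0.06 without scaling, so that no direction can be given for Itgb1. The probes differed by 0.53, against a median of 0.41 over 3056 genes with 2 or more probes above background on both arrays. Itgb7, the partner of Itga4 in lymphocyte homing, read 571 and 552 on its 1 probe. The log2 ratio was -0.37 ± 0.20, and it stayed below 0 and within 2-fold in the 12 alternatives, between -0.50 and -0.05. Filters and probe choices could not move this ratio either.

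**Figure D2:**
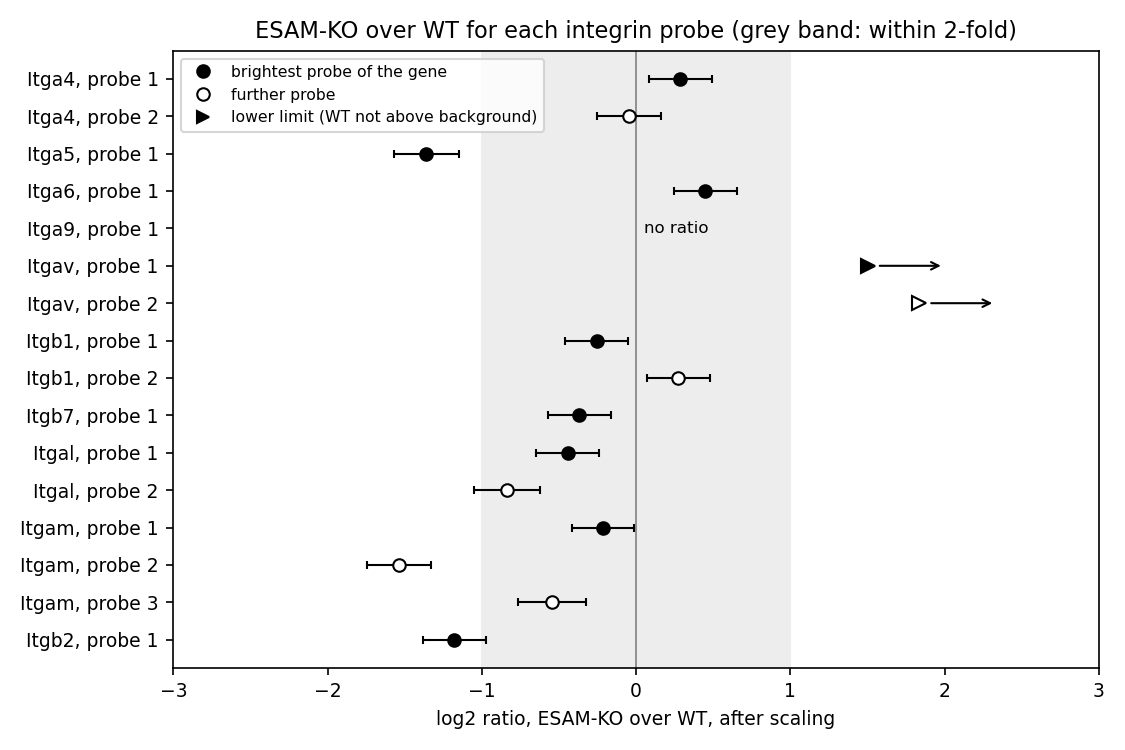
Log2 ratio of ESAM-KO over WT for each integrin probe after scaling, with the scanner software's error as bars and the range within 2-fold in grey. Itga5, Itgb2 and the second Itgam probe lie below -1, the Itgav limits lie at 1.503 and 1.84 with arrows toward higher values, and the Itga4 and Itgb1 probes fall on both sides of 0.

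Of the 3 leukocyte integrin genes, Itgb2 and Itgal were lower in ESAM-KO cells on every probe, and the Itgam ratio depended on the probe and the scaling. Itgb2, the beta chain that LFA-1 and Mac1 share, read 4049.7 in WT cells and 2229 in ESAM-KO cells on its 1 probe (NM_008404). After scaling this was 2.27-fold lower, with a log2 ratio of -1.18 ± 0.20. The ratio was past 2-fold in 11 of 12 alternatives and within it, at -0.86, without scaling. Of the 12, filters and probe choices could not move the ratio of this 1 probe. In the brightest quartile of signal, to which Itgb2 belongs, 2.63% of genes were past 2-fold in either direction.

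Itgal, the alpha chain of LFA-1, was measured by 2 probes for different transcripts (NM_008400 and NM_001253872). The first read 546 in WT cells and 501 in ESAM-KO cells, and the second 146 and 102. Both readings were lower on the ESAM-KO array. The log2 ratios were -0.44 ± 0.20 and -0.84 ± 0.21, both within 2-fold. In the quartile of signal that holds Itgal, Itga4 and Itgb7, 10.8% of genes were past 2-fold.

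Itgam, the alpha chain of Mac1 and also known as CD11b, was measured by 3 probes. The brightest read 76375.5 in WT cells and 82075.5 in ESAM-KO cells, the second 269.6 and 116, and the third 81.7 and 69.8. The log2 ratios were -0.21 ± 0.20, -1.54 ± 0.21 and -0.55 ± 0.22, so that the second probe alone was past 2-fold. Before scaling the brightest probe was higher in ESAM-KO cells, by 0.10, and the other 2 were lower. The brightest and the second probe carry the same transcript accession (NM_001082960) and differed by 1.32, a gap that 12.7% of genes with 2 or more such probes exceeded. Which of the probes follows the transcript was not tested, and if the brightest is left out Itgam counts as past 2-fold.

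Of the 9 members with a ratio, 1 was higher and 2 were lower by more than 2-fold, set beside the 15.4% of all genes with a ratio. The median of the 9 ratios was -0.26 and that of all genes was 0.00. Without scaling the medians were 0.06 and 0.31, so that the sign of the members' median turned. The scaling shifts the ratios by 1 constant, 0.32, and moves both medians together. That the members' median stayed the lower is thus no second check. Set by receptor, beside -0.26 and 0.27 for the Itgb1 probes stood 0.29 and -0.04 for the Itga4 probes, -1.36 for Itga5, 0.45 for Itga6 and limits of 1.503 and 1.84 for Itgav. Itga5 lay below both Itgb1 probes and Itgav above both, each by more than the scanner error of a ratio measured on both arrays. Beside -1.18 for Itgb2 stood -0.44 for Itgal and -0.21 for the brightest Itgam probe.

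**Figure D3:**
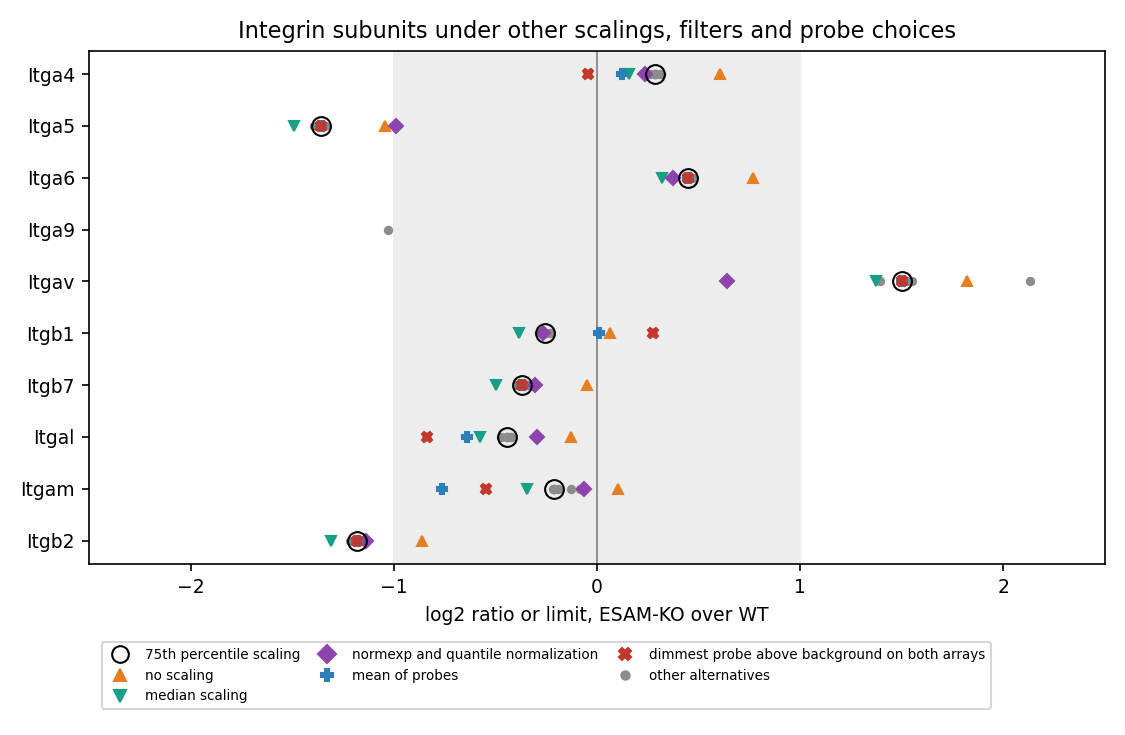
Log2 ratio or limit of each integrin subunit under the scaling used throughout (open circles) and under other scalings, filters and probe choices (coloured and grey symbols), with the range within 2-fold in grey. Itga5 and Itgb2 stay below 0 and Itga6 and Itgav above 0 in each, while Itga4, Itgb1 and Itgam have symbols on both sides of 0. The 1 symbol of Itga9 is the ratio with no filter on dim probes.

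The array named 14 of the 16 other integrin subunits listed, all but Itga10 and Itgae. Of these, 9 had no ratio, 1 was lower by more than 2-fold and none was higher. The 1 was Itgb4, the partner of Itga6 in laminin binding, which read 76.7 in WT cells and 33.6 in ESAM-KO cells (log2 ratio -1.51 ± 0.26). It lies in the dimmest quartile of signal, in which 17.9% of genes were past 2-fold. Itga2b, the platelet chain used in the gate as CD41, read 35.8 and 29.7, with a log2 ratio of -0.59 ± 0.28. The beta chains with which Itgav can pair differed in what was measured. Neither array gave Itgb5, Itgb6 or Itgb8 a signal well above background. Itgb3 read 581 in WT cells and 856 in ESAM-KO cells on its brightest probe (0.24 ± 0.20), and a second probe read 12.7, not well above background, and 100.3, a limit of at least 2.66. The Itgb3 probes thus did not give the same ratio. Itgax and Itgad are the protein-coding genes that follow Itgam on chromosome 7. The Itgax probe gave no signal well above background in WT or ESAM-KO cells, and Itgad read 17.7 in WT cells and 3.61, not well above background, in ESAM-KO cells, so that it was at least 1.68-fold lower.

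The 22 genes listed as ligands of these receptors gave 15 ratios, with a median of 0.12, and 3 of them were past 2-fold in each direction, or 40.0% against 15.4% of all genes with a ratio. Without scaling 6 were higher and 2 lower, and with median scaling 2 were higher and 4 lower, so that the balance of directions depended on the scaling. Most of the genes past 2-fold were dim. Vcam1, Lama5, Fn1, Tnc and Lamc1 lie in the dimmest quartile of signal, and Fn1, Tnc and Lamc1 are limits. In that quartile 17.9% of genes measured on both arrays were past 2-fold. Over genes above background on both arrays, 3 of 11 ligands were past 2-fold, against 12.6% of all such genes. Vcam1, the ligand of VLA-4, read 121 in WT cells and 20.6 in ESAM-KO cells, a log2 ratio of -2.88 ± 0.31, and its second probe read 51.1 and 31.2 (-1.03). Icam1, a ligand of LFA-1 and Mac1, read 138 and 71.6, a log2 ratio of -1.27 ± 0.22. Other ligands of the leukocyte and Itga4 receptors measured on both arrays lay within 2-fold on the brightest probe. Above 0 were Icam2 at 0.04, F11r at 0.22, Madcam1 at 0.75 and Jam2 at 0.83. Below 0 were C3 at -0.23, Jam3 at -0.32 and Emilin1 at -0.96. The second C3 probe, spotted 10 times, was past 2-fold at -1.16. Tnc, the matrix protein tenascin C bound by Itga9, read 70.3 in WT cells and 3.41 in ESAM-KO cells, the latter not well above background, and was at least 6.66-fold lower. Its second probe gave only background in both genotypes. Icam4, the erythroblast ligand of Itga4 and Itgav receptors in the erythroblastic island, read 640.4 and 867 and lay within 2-fold at 0.12 ± 0.20. Fn1, the fibronectin bound by VLA-4 and VLA-5, read 11.2 in WT cells, not well above background, and 31.8 in ESAM-KO cells, at least 2.03-fold higher. Of the 4 chains listed of laminins, which Itga6 receptors bind, Lama5 read 33.5 and 131 (1.65 ± 0.25), and Lamc1 read 3.32, not well above background, and 90.6, at least 5.78-fold higher. Lama4 and Lamb1 had no signal well above background in either genotype. With normexp 2 of the 15 ratios were past 2-fold, and none of the 2 was higher in ESAM-KO cells.

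Of the 17 genes listed for switching integrins to their binding state, 16 had a ratio or a limit and none of these passed 2-fold on the brightest probe. Fermt2, a kindlin of other tissues, was at least 1.84-fold lower on that probe and at least 2.06-fold higher on its second, so that its probes disagreed in direction. Tln1, the talin that binds beta tails, read 656 in WT cells and 755 in ESAM-KO cells, with a log2 ratio of -0.11 ± 0.20. Fermt3, the kindlin of blood cells, read 935 and 800.3, with a log2 ratio of -0.54 ± 0.20. The median of the list was -0.21, and its ratios ran from -0.89 to 0.87. Rasgrp2, which activates the small GTPase Rap1, read -0.89 on its brightest probe and 0.89 on its second, and its probes likewise disagreed. Itgb1bp1, at 0.87 the highest of the list, was also higher on its second probe, a limit of at least 1.11 that is past 2-fold. Below 0 were 13 of the 16 ratios.

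The proteins that tie integrin tails to actin and to kinases formed a list of 21, of which 20 were named on the array, all but Tgfb1i1, and all 20 had a ratio. Their median was -0.21, and 3 of them were lower and 1 higher past 2-fold, or 20% against 15.4% of all genes with a ratio. Vcl, the vinculin of adhesion sites, read 1402 in WT cells and 691 in ESAM-KO cells on its first probe and 1378 and 613 on its second, with log2 ratios of -1.34 ± 0.20 and -1.49. Pxn, the scaffold paxillin, which binds the tail of Itga4, read 1279.5 and 640.0 (-1.32 ± 0.20). Actn1, an actin crosslinker, read 143 and 42.7 (-2.06 ± 0.23). These 3 encode proteins of the cytoskeleton at adhesion sites, but other such genes of the list lay within 2-fold. Zyx was at -0.91, Parva at -0.17, Vasp at -0.07, Actn4 at -0.02 and Parvg at 0.13. The Parvb probes differed, at -0.03 on the brightest and -1.72 on the second. Ptk2, the focal adhesion kinase, was the 1 higher gene and read 2.98 in WT cells, not well above background, and 52.9 in ESAM-KO cells, at least 3.37-fold higher. The blood cell relative Ptk2b lay within 2-fold, at -0.60 ± 0.20.

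**Figure D4:**
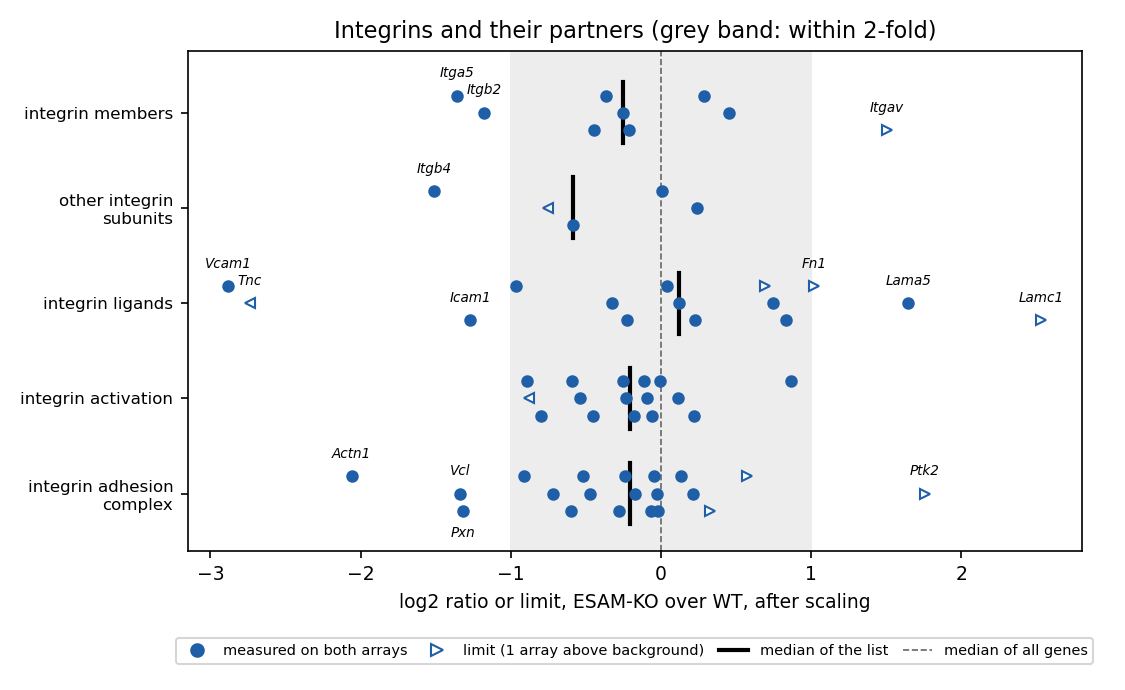
Log2 ratio or limit of ESAM-KO over WT for the integrin members and for the lists of other subunits, ligands, activators and adhesion complex genes, 1 symbol per gene, with list medians as bars and genes past 2-fold named. The activation list has no gene outside the grey band, and the ligand list has 3 on each side under the scaling used throughout.

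Markers of mature blood cells also differed between the arrays. All 12 neutrophil markers on the array were lower in ESAM-KO cells by more than 2-fold, with log2 ratios from -4.68 to -1.16. Their summed signal was 60075 in WT cells and 10102 in ESAM-KO cells, or 298 and 40.2 relative to the 75th percentile. Neutrophils carry Itgb2, Itgam and Itgal. After scaling, Itgb2 was at -1.18, the Itgal probes at -0.44 and -0.84, and the Itgam probes at -0.21, -1.54 and -0.55. The brightest Itgam probe was at 0.10 before scaling. The median of the neutrophil markers, -3.32, lay further below 0 than each of these. Antibodies to Mac1 and Gr1 in the lineage gate are directed at mature neutrophils and other myeloid cells, and that to B220 at B cells. In RNA from a sorted pool, fewer cells of a type and less RNA per cell cannot be told apart, and the part of neutrophil RNA in the integrin values was not tested.

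Monocytes and macrophages carry the same leukocyte integrins and their markers did not differ in 1 direction. Of 10 on the array 5 had a ratio, with Lyz2 lower (-3.41), C1qa higher (1.19) and 3 within 2-fold, among them Csf1r at -0.16. Adgre1, which defines macrophages, read 13.6 in WT cells and 16.4 in ESAM-KO cells, the latter alone well above background, and its limit was too small for a ratio. The summed signal of the 10 markers was 6892.5 in WT cells and 7609.6 in ESAM-KO cells. Relative to the 75th percentile it was 34.2 and 30.3, so that the order turned with the scaling. Csf1r alone read 6554 and 7310, so that the sums follow this 1 gene and say little of the other markers. Of the 7 B cell markers with a ratio 4 were lower and none was higher, and their sum was 587 in WT cells and 233 in ESAM-KO cells. The mast cell, basophil and eosinophil markers summed to 1615 and 203, with 3 lower and 1 higher of 4. Of the 6 T and NK cell markers with a ratio 1 was past 2-fold, lower in ESAM-KO cells.

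Megakaryocytes carry Itga2b, Itgb3 and Itgav, and their markers lay on both sides of 0. Of 9, 2 were higher and 2 lower past 2-fold, and the median was 0.51. Of the 12 erythroid markers, none was higher past 2-fold and 4 were lower. The sum of the erythroid markers was 75287 in WT cells and 62985 in ESAM-KO cells. Of 8 endothelial markers 6 had a ratio, with Pecam1 lower (-1.99), Tek at least 2.14-fold higher and 4 within 2-fold, among them Kdr at -0.13. Cdh5, which defines endothelial cells, gave only background in both genotypes. Of the 8 stem and early progenitor markers with a ratio, 2 were higher and 1 lower past 2-fold. The part of these cell types in the values of Itgav, Itga5 and Vcam1 was not tested.

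**Figure D5:**
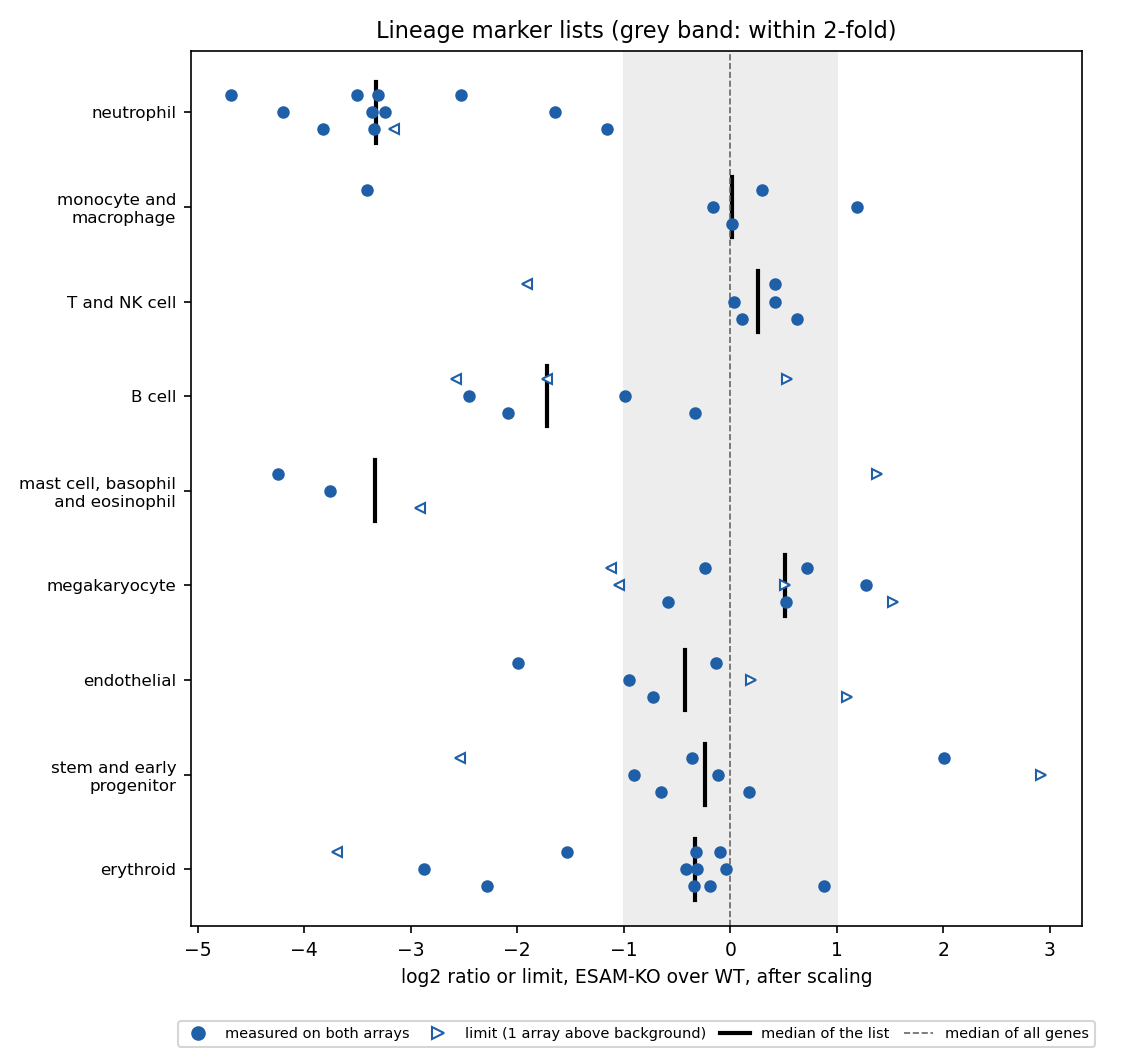
Log2 ratio or limit of ESAM-KO over WT for markers of 9 cell types, 1 symbol per gene, with list medians as bars and the range within 2-fold in grey. All 12 neutrophil symbols lie below -1, with a median of -3.32, while the megakaryocyte and erythroid lists have medians of 0.51 and -0.33.

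The spread between spots bounds what the arrays can resolve within a single hybridisation. Among probes spotted 10 times, the SD of the log2 ratio over spots had a median of 0.25 in the dimmest quartile of signal and 0.15, 0.085 and 0.050 in the quartiles above it. Itgb2, Itga6, Itgb1 and the brightest Itgam probe lie in the brightest quartile, Itga4, Itgb7 and Itgal in the next and Itga5 in the one below. The gaps between probes of one gene were 0.33 for Itga4 and 0.39 for Itgal, below the median of 0.41 over all such genes, and 0.53 for Itgb1 and 1.32 for Itgam, above it.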

How the data were processed

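The authors deposited, for each array, the output of Agilent Feature Extraction (version 10.10.1.1 per the submitters' processing notes), an intensity per spot corrected for background within the array and not scaled between arrays, with flags for outliers and for signal well above background. Control spots and 254 outlier spots were left out, and log2 of the intensity was set relative to the 75th percentile of its array. A gene was represented by its brightest probe. A probe needed over 50% of its spots to carry the flag for signal well above background. With the flag on 1 array, the bright signal was set against the dim probe's own signal or that array's lowest flagged signal, whichever was higher, which gives a limit. No ratio is given with the flag on neither array or a limit under 1-fold. Transcript accessions matched RefSeq (assembly GRCm38.p6, names and gene order only) for 48.9% of probes.

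All 10 members are named by every probe, and of the pathway lists the genes past 2-fold with Icam4, Vcam1, Fn1, Tln1, Fermt3, Itga2b and Esam. Other genes were picked with their values known, and most markers are given only in counts and sums. The members and lists were chosen with earlier results of these data known. Both arrays shared 1 slide and 1 scan, so no block could be fitted. Alternatives were other scalings, normexp (offset 50, on median spot signals since the files hold no mean signals), the deposited series table, filters on dim probes, choice of probe and other folds. The software was R 4.3.3 (limma 3.58.1) and Python 3.11.15 (pandas 2.3.3, numpy 2.4.6, matplotlib 3.10.9). The counting was tested on simulated data. With 1 array per genotype, the number of arrays limits the precision.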

Additional observations from a re-analysis of the deposited data

How the results depend on the processing

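No paired analysis was possible because there is 1 array for WT and 1 for ESAM-KO. Leaving scaling out raised the median of all genes by 0.31 and median scaling lowered it to -0.13, and of the genes past 2-fold 54.7% were lower as reported, 28.8% without scaling, 66.8% under median scaling and 67.3% under normexp. Over all genes 2179 were past 2-fold (15.4%), 722 with normexp (5.11%) and 4108 with no filter on dim probes (19.9%). The members past 2-fold numbered 3, and 1 with normexp and 0 at 3-fold, and their median of -0.26 became 0.063 without scaling. Other subunits past 2-fold numbered 1, with 0 under normexp or at 3-fold and 3 with no filter or at 1.5-fold. Ligands numbered 6 (3 higher, 3 lower; 6 and 2 without scaling, 2 and 4 with median scaling), with 2 under normexp, 3 over genes above background on both arrays, 11 with no filter and 10 at 1.5-fold. Activation genes numbered 0, with 1 without scaling or with no filter, 2 with median scaling and 5 at 1.5-fold. Adhesion complex genes numbered 4, with 7 at 1.5-fold and 2 at 3-fold. The share of all genes past 1.5-fold or 3-fold was not computed, so the counts at these folds have no baseline. Of 107 member values under other settings, 90 moved by less than the scanner error, and 0 values past 2-fold changed sign. Only values of Itga5, Itgb2 and Itgav could count toward the 0. Itga4, Itgb1 and Itgam, which lay within 2-fold, changed sign under at least 1 setting. The 90 include values that could not move, such as those of genes with 1 probe under other probe choices. The count thus overstates how far the values were tested. Leaving out the brightest Itgam probe, an alternative chosen after seeing the data, gave Itgam -1.54. The cause of these shifts was not tested. Depth here is signal over background, which limits Itgav, Itga9, Fn1, Lamc1, Ptk2 and Tnc to limits or to no ratio.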
